A study of Mus musculus with 12 samples.

Results

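The genes described here are the pore-forming and accessory subunits of ion channels whose mouse symbols begin with Kcn, or are Cacna1, Hcn or Scn subunit names: 118 of the 21631 protein-coding genes on chromosomes 1 to 19 and X in GRCm38. The set was chosen by symbol, after results of these data were known. Its working name was voltage-gated potassium, calcium and sodium channels, but the symbols reach further. The 118 genes hold 64 pores of the voltage-gated families (40 potassium, 10 calcium, 10 sodium and 4 HCN genes), 37 potassium pores of other families, which are inward rectifiers, background channels or channels opened by calcium or sodium, and 17 accessory proteins. H3K27ac, acetylated lysine 27 of histone H3, was mapped by ChIP-seq in cells grown from subcutaneous fat of Azin2-/- mice (replicates 1, 2 and 8) and wild-type mice (replicates 1, 2 and 2b). Azin2 encodes an antizyme inhibitor that raises polyamine synthesis, and neither the kind of Azin2 allele nor the strain or age of the mice is stated in the sources used. Both genotypes had the same culture: 1 week of growth with 4.5 g/l glucose and 10% serum, 2 days of adipogenic induction (5 µg/ml insulin, 0.5 mM IBMX, 1 µM dexamethasone, 1 µM rosiglitazone) and 5 days of insulin. The labels name the cells adipocyte progenitors and leave unsaid which animal each library is from. P-values here measure only the spread between these libraries, which may be technical.

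Voltage-gated channels open and close with the membrane potential: sodium and calcium channels depolarise a cell when they open, and potassium channels repolarise it. A potassium pore is built from separate subunits, so related genes can form mixed channels, and beta, Kcne, Kcnip and Kcnmb proteins alter how pores open or reach the membrane. H3K27ac lies at active promoters and enhancers. In fat cells and their precursors potassium channels help to set the resting potential, while many genes of this set are best known from neurons and muscle, where they shape action potentials.

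The deposited data are lists of peaks, 741843 to 1216000 per library on the chromosomes used, without read totals. They reach down to a weakest p-value, as given by the authors, of 0.0993 to 0.0999. The 30000 strongest peaks of each library, ranked by the authors' p-value, were used, and a gene's cover is the length of such peaks in its locus, the gene with flanks of 5 kb, after scaling all libraries to the same total. Lengths given for a merged region, a promoter window or a gene end are unscaled. The lists differed in depth. The median summit pileup implied by the deposited fold and p was 3 fragments in wild-type 1, which also had the least total cover with 16.81 Mb, and 4 to 8 fragments in the other libraries, with 21.13 to 28.92 Mb. Azin2-/- 1 had 54847 peaks with a deposited q up to 0.05, while the others had 13843 to 21544. Shared length over joint length was between 0.121 and 0.243 for all pairs of libraries, and 0.159 for wild-type 2 and 2b. By summit pileup and total cover wild-type 1 was the shallowest library.

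Promoters of 5 channel genes show the range met in the data. Each is the 250 bases before an annotated start, from the RefSeq table of build GRCm38.p6, written 5′ to 3′ on the gene's strand. Capitals mark GC boxes, the letters GGGCGG or CCGCCC (the same motif on the other strand), overlapping matches included. The first is from a start site held only by Azin2-/- libraries, the second from the start site inside Kcnh2, the third from a start region held by every library, the fourth from a gene with a shared peak downstream of this window, and the last from a neuronal sodium channel gene with no peak there.

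Hcn2, chr10:79716384-79716633, plus strand: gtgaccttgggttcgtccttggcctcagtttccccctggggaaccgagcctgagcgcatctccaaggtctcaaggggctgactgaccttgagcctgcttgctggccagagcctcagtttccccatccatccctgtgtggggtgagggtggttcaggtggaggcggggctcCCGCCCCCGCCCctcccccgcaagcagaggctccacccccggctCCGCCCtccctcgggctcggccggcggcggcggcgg
Kcnh2, chr5:24329592-24329841, minus strand: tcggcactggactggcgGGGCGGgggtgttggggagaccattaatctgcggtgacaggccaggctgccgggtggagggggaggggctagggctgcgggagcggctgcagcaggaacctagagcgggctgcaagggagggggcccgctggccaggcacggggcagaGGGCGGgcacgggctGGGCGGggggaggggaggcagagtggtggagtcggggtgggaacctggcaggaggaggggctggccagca
Kcnma1, chr14:24004206-24004455, minus strand: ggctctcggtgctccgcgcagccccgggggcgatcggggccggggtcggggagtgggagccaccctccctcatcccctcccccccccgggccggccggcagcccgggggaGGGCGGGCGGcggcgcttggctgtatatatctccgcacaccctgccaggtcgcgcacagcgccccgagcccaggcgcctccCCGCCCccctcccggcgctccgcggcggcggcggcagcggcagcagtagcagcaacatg
Kcnq5, chr1:21962651-21962900, minus strand: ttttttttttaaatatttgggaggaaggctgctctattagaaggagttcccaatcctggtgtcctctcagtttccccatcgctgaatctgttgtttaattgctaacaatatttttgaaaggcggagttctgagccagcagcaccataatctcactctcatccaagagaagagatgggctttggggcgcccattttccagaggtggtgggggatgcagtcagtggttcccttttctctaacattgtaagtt
Scn10a, chr9:119719033-119719282, minus strand: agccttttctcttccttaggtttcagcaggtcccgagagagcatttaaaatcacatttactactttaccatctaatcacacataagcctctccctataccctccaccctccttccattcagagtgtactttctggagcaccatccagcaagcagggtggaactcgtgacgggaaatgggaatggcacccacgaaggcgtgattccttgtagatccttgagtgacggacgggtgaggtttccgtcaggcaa

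The Hcn2, Kcnh2 and Kcnma1 windows each hold 3 GC boxes and have GC contents of 70.4%, 73.6% and 79.2%. The Kcnq5 and Scn10a windows hold no GC box and have 44.4% and 49.6%. All 3 Azin2-/- libraries covered the Hcn2 window and no wild-type library did. The Kcnh2 window was covered in 5 libraries, all but wild-type 2b. The Kcnma1 window was also covered in 5, all but wild-type 1, whose peak there lay just beyond it. The Kcnq5 window had 110 bp of cover in Azin2-/- 2 alone, and the Scn10a window had none in any library.

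Few channel genes carried acetylation at a gene end in every library. A peak within 1 kb of either end of the gene was present in all 6 libraries for 14 of the 118 genes, or 11.9%, against 18% of all protein-coding genes. Another 67 genes (56.8%, against 43.9%) had such a peak in 1 to 5 libraries, and 37 (31.4%, against 38.1%) in none. Over the whole locus the order was the other way: 53 channel genes (44.9%) had a peak in all 6 libraries, against 31.4% of all genes, and 6 (5.08%) had none, against 17.5%. Channel genes are long, with a median of 44.7 kb against 17.3 kb for all genes, so these counts are of loci of unequal size. Peaks covered 1.21% of the length of channel loci and 1.58% of that of all loci. In each library between 197 and 277 peaks lay in channel loci, and 65.7% to 80.7% of them had their summit inside a gene, more than 1 kb from its ends.

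The potassium pores with constant gene-end peaks were spread thinly over the subfamilies. KCNQ channels, which carry the slow M-type and related currents that restrain excitability, had 3 of 5 genes with a peak in all 6 libraries (among them Kcnq5). The modifier subunits, which form no channel alone and change Kv2 channels, had 2 of 10 (Kcng2 and Kcns3), the Kv2 genes 1 of 2 (Kcnb2), and the large-conductance and sodium-activated group 1 of 4 (Kcnma1). The background channels of the Kcnk family, which leak potassium at rest, had 2 of 14 (Kcnk6 and Kcnk12), and the inward rectifiers 1 of 15 (Kcnj11, the pore of ATP-sensitive potassium channels). No gene of Kv1 (8 genes), Kv3 (4), Kv4 (3), Kcnh (8) or Kcnn (4) had one in every library, though all 4 Kv3 and all 4 Kcnn genes had one in at least 1 library.

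Outside the potassium pores, HCN channels, the cation channels opened by hyperpolarisation, had 1 of 4 genes with a constant gene-end peak (Hcn4). The calcium pores had 2 of 10: Cacna1a, the P/Q-type pore, and Cacna1g, a T-type pore that opens at low voltage. The sodium pores had 1 of 10, Scn8a, and 6 sodium channel genes, Scn1a, Scn2a, Scn3a, Scn7a, Scn9a and Scn10a, had no gene-end peak in any library. The accessory proteins had 0 of 17, with 8 in 1 to 5 libraries and 9 in none. Kcna5, Kcna10, Kcnk16, Kcnmb1, Kcnrg and Kcne1l had no peak of this strength anywhere in the gene and its flanks in any library.

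**Figure D1:**
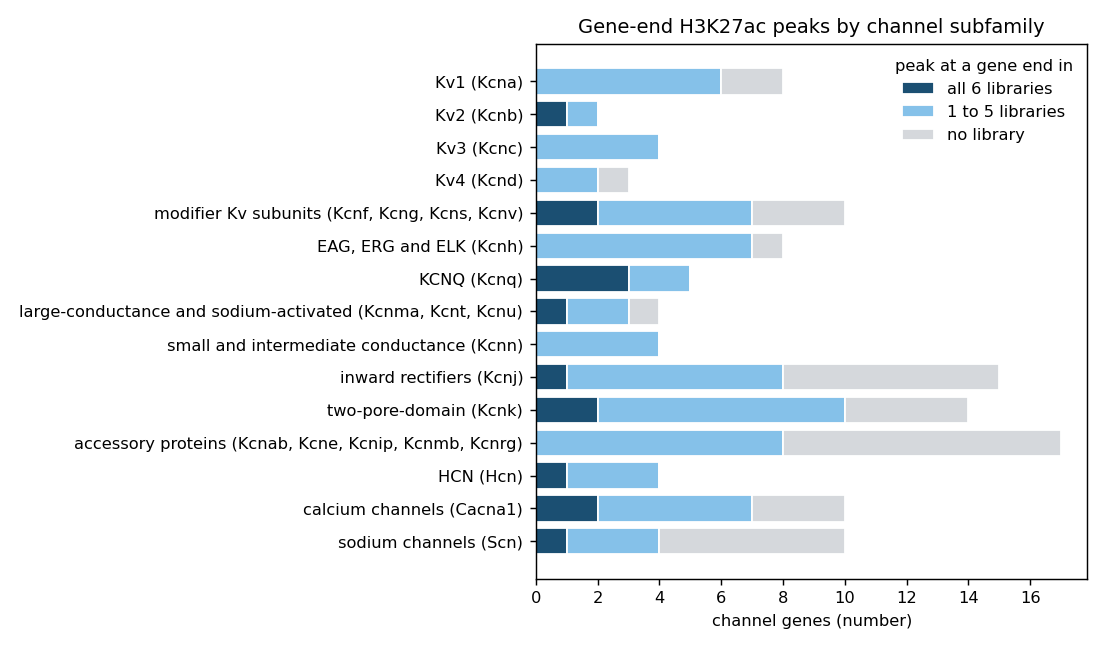
Channel genes by subfamily (vertical axis) and number of genes (horizontal axis), split by whether a peak lay within 1 kb of a gene end in all 6 libraries, in 1 to 5 or in none. Constant peaks were found in 14 genes, 3 of them KCNQ genes, and the 17 accessory genes had none.

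The 14 genes differed in how much of their ends was acetylated and how strongly. Mean cover within 1 kb of the ends, unscaled, was 1370 bp for Hcn4, the highest, and was high also for Cacna1g with 1250 bp, Kcnk12 with 1240 bp and Kcnma1 with 1180 bp. It was lowest for Kcng2 with 787 bp, Cacna1a with 735 bp, Kcns3 with 629 bp and Kcnq5 with 458 bp. Kcnb2, Kcnk6, Scn8a and Kcnj11 had 1130, 1080, 993 and 816 bp. Wild-type 1 had the least end cover of the 6 libraries at 10 of the 14 genes, all but Kcnb2, Scn8a, Kcng2 and Kcns3. Without it 21 channel genes had a gene-end peak in every remaining library, and 18 did without Azin2-/- 8. All 3 Azin2-/- libraries had such a peak at 34 channel genes (28.8%, against 28.9%), and all 3 wild-type libraries at 18 (15.3%, against 21.7%).

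Kcnma1 encodes the pore of the BK channel, which voltage and calcium open together. Its start region, chr14:24003401-24005768, was covered over 1843, 1891 and 1438 bp in Azin2-/- 1, 2 and 8 and over 719, 2306 and 1231 bp in wild-type 1, 2 and 2b. It was narrowest in wild-type 1, also after scaling, and the genotypes overlapped. In every library this was the strongest peak of the locus, at rank 256 of the 30000 in Azin2-/- 2 and at rank 11870 in Azin2-/- 8. Over the whole Kcnma1 locus scaled cover was 3710, 9088 and 2496 bp in Azin2-/- and 5818, 4011 and 5365 bp in wild-type, a log2 difference of -0.16 with the genotypes overlapping and Azin2-/- 2 far above the rest.

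Kcnq5 shows why a gene end is not always the acetylated start. Its region, chr1:21960710-21962760, was covered over 1189, 1771 and 1327 bp in Azin2-/- 1, 2 and 8 and over 700, 1005 and 1443 bp in wild-type 1, 2 and 2b. The genotypes overlapped. Wild-type 1 was lowest, but after scaling Azin2-/- 1 was, with 955 bp against 968 bp in wild-type 1. In the 5 libraries other than wild-type 1, whose strongest Kcnq5 peak lay elsewhere in the gene, the summit of the strongest Kcnq5 peak lay 327 to 505 bp downstream of the nearest annotated start and 1035 to 1213 bp downstream of the outermost one, after the window printed above.

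At Hcn4, the main HCN gene of the sinus node, the region chr9:58821854-58825737 spans the start and was covered over 2656, 3026 and 1818 bp in Azin2-/- 1, 2 and 8 and over 788, 1875 and 3371 bp in wild-type 1, 2 and 2b. Wild-type 2b was widest, but after scaling Azin2-/- 2 was, with 3106 bp against 2798 bp in wild-type 2b, and wild-type 1 was narrowest either way. It also lies within 1 kb of Rec114, so that its cover cannot be given to Hcn4 alone. At Scn8a, the sodium channel of axon initial segments, and at Kcnk12 the region shared by all libraries lay at the end of the gene away from the annotated start. That of Scn8a, chr15:101045645-101048285, was covered over 1327 to 2347 bp and lay 175000 bp from the outermost start. That of Kcnk12, chr17:87745394-87747413, was covered over 775 to 1534 bp and lay 50581 bp from it, and in Azin2-/- 1 its peak had rank 188 of the 30000. Near their start sites Scn8a had a peak in 5 libraries and Kcnk12 in 4.

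Counted at annotated start sites instead of gene ends, a count added after the data were seen, 86 of the 118 genes could be placed. Of these 6 (6.98%) had a peak within 1 kb of a start in every library, against 19% of the 17274 genes placed: Kcnq5, Hcn4, Kcns3, Kcnma1, Kcnip3 and Kcnj4. None was present in any library for 32 (37.2%, against 41.3%). Kcnip3, which encodes a calcium sensor that binds Kv4 channels and also DNA, and Kcnj4, an inward rectifier, had this peak at a start inside the longest gene model and so were missed by the count at gene ends. The Kcnj4 region, chr15:79504494-79506830, was covered over 1876, 1109 and 1499 bp in Azin2-/- and 1454, 1638 and 2337 bp in wild-type. The Kcnip3 region, chr2:127481383-127483651, was covered over 2145, 1061 and 1807 bp in Azin2-/- and 1168, 1338 and 1087 bp in wild-type. Genotypes overlapped at both.

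Merging overlapping or adjoining peaks gave 958 regions in channel loci, counted once per locus, of which 786 (82%, against 85.8% of 128532 regions over all chromosomes used) were held by 1 library and 27 (2.82%, against 3.23%) by all 6. The 27 lay in 26 genes, and 16 were at the gene's own end. Of the others, 5 were neither at an own end nor within 1 kb of another gene: those of Kcnip3 and Kcnj4, and regions inside Kcnk3, Cacna1a and Cacna1h. The region inside Cacna1a, chr8:84413923-84416524, was covered over 2472, 1625 and 1951 bp in Azin2-/- and 1095, 782 and 2546 bp in wild-type. That inside Cacna1h, a T-type calcium pore, chr17:25432253-25434862, was covered over 2493, 2254 and 2070 bp in Azin2-/- and 1577, 1790 and 1346 bp in wild-type, with every Azin2-/- library above every wild-type one. After scaling the Cacna1h values were 2003, 2314 and 2277 bp and 2180, 1896 and 1117 bp, and the genotypes overlapped. At the other 6 regions the peak lay within 1 kb of a neighbour: Clk2 and Gm45927 beside Hcn3, Dcp1b beside Cacna1c, Ntf5 beside Kcna7, Cyth2 beside Kcnj14, Arrdc2 beside Kcnn1 and Otud5 beside Kcnd1. The peaks of these 6 cannot be assigned to the channel gene alone.

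Channel genes with a peak at an annotated start had more CpG around their outermost start than those without, as was so over all genes. The peak could be at any annotated start, so the window was not always the acetylated one. In windows of 300 bases around the outermost start (250 before to 50 after), the median ratio of observed to expected CpG was 0.666 in the 6 genes with a start-site peak in all libraries, 0.569 in the 48 with one in 1 to 5 libraries and 0.286 in the 32 with none. Over all genes it was 0.849, 0.715 and 0.226. A GC box was present in 4 of the 6 (66.7%), in 62.5% of the 48 and in 25% of the 32, and over all genes in 76.4%, 60.6% and 20.1%. The letters TATAAA, on either strand, were in 4.65% of the 86 windows and in 13.4% of those of all genes. Values within the class with no peak ran from 0 upward and overlapped those of every other class, and the 6 constant genes included Kcnq5, with a ratio of 0.189. They also included Kcnip3, with a ratio of 0.296, which had no peak within 1 kb of its outermost start in any library. The shares describe letters in these windows and say nothing of factors bound there.

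**Figure D2:**
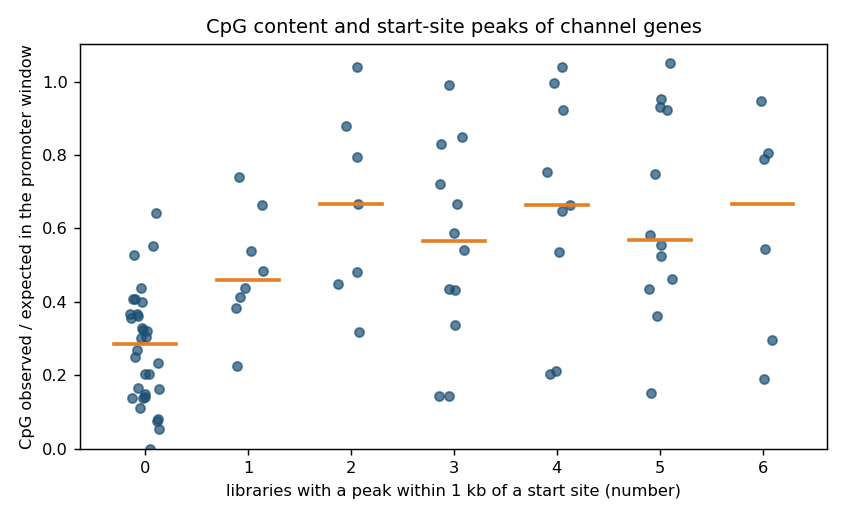
Ratio of observed to expected CpG in the promoter window (vertical axis) of 86 channel genes, by the number of libraries with a peak within 1 kb of a start site (horizontal axis). Points are genes, spread sideways for sight only, and bars are medians, which are 0.286 for no library and 0.666 for all 6.

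Between genotypes, the channel loci with more cover in every Azin2-/- library than in any wild-type library were headed by Kcnh2, the hERG potassium channel of cardiac repolarisation, and Hcn2. None passed the test across all genes. In limma with Benjamini-Hochberg adjustment over 11687 loci, 0 loci (0% in either direction) had an adjusted p under 0.05, and the lowest adjusted p was 0.752 among the channel loci and among all. Of the 118 channel loci 85 had the minimum mean cover of 500 bp, and 12 of these (14.1%, against 4.3% of all loci) were higher and 0 (0%, against 2.1%) lower in Azin2-/- at an unadjusted limma p under 0.05. Genotypes did not overlap at 11 of these 85 channel loci with Azin2-/- above (12.9%, against 6.66%) and at 0 with Azin2-/- below (0%, against 4.86%). The 0 holds only above the minimum. Scn2a and Kcnj16, both under it, had every Azin2-/- library below every wild-type library, and no channel locus under it had the reverse. The log2 difference was positive for 53 of 85 channel loci (62.4%, against 54.8%), with a median of 0.23 against 0.07 over all loci. Because the family was proposed with these differences in view, the counts are a description and carry no test.

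The size of this median, though not its sign, moved with single libraries and with scaling. The channel median was 0.48 without Azin2-/- 8 and 0.13 without Azin2-/- 2 or without wild-type 1. Without scaling it was 0.34, against 0.17 over all loci, and 74.1% of channel loci were positive, against 62% of all. The number of channel genes with a gene-end peak was 70, 49 and 40 in Azin2-/- 1, 2 and 8 and 26, 51 and 39 in wild-type 1, 2 and 2b. The libraries with most peaks at a low q and with the lowest pileup, Azin2-/- 1 and wild-type 1, were thus also the highest and the lowest here, and the part of depth in the genotype difference was not tested.

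**Figure D3:**
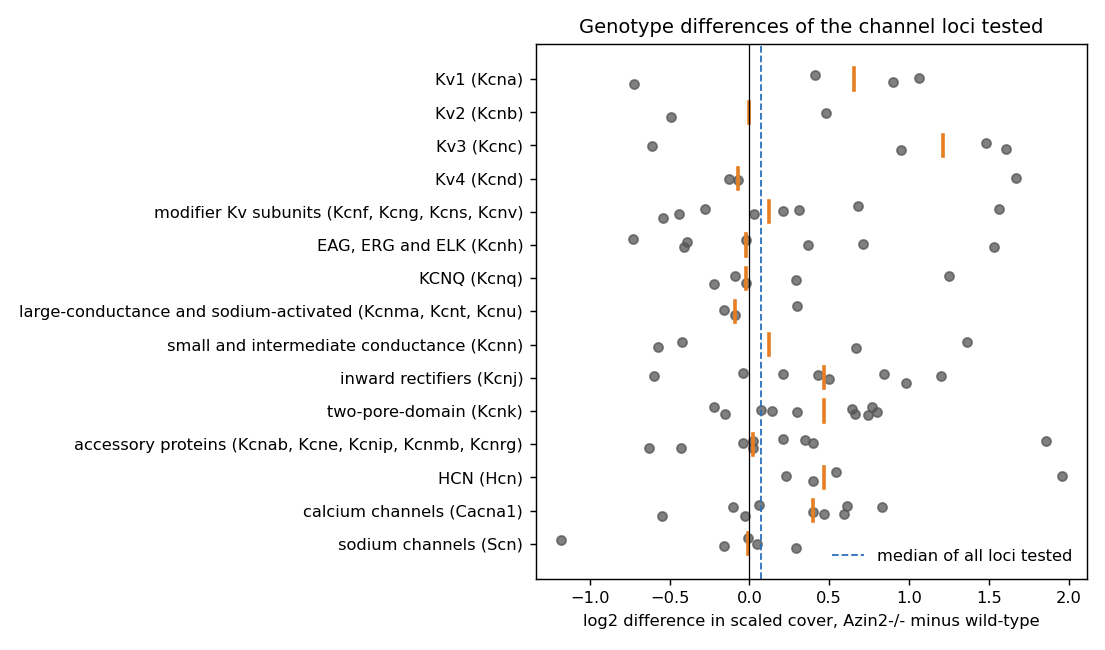
Log2 difference in scaled cover, Azin2-/- minus wild-type (horizontal axis), of the 85 channel loci tested, by subfamily. Points are genes, orange bars are subfamily medians and the dashed line is the median of all 11687 loci, 0.07. Kv3 has the highest median, 1.22, and Hcn2 is the rightmost point at 1.96.

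Kcnh2, chr5:24319589-24351684, had scaled cover of 6512, 6851 and 6083 bp in Azin2-/- 1, 2 and 8 and 1859, 2272 and 1663 bp in wild-type 1, 2 and 2b. All 3 Azin2-/- libraries lay far above all 3 wild-type libraries, and each genotype was tight (log2 difference 1.53, SE 0.31, limma adjusted p = 0.752). The difference lay between 1.44 and 1.63 when any library was left out, and no other protein-coding gene lies within 5 kb. The cover was made up of several regions. Around the internal start site printed above, chr5:24328480-24331045 was covered over 2304, 1517 and 1051 bp in Azin2-/- and 1112, 514 and 0 bp in wild-type. The genotypes overlapped there, with wild-type 1 above Azin2-/- 8. Around the upstream end of the gene, chr5:24350589-24353050 was covered over 2462, 1564 and 1172 bp in Azin2-/- and 0, 1630 and 1263 bp in wild-type, also with genotypes overlapping.

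Other parts of Kcnh2 were held almost or wholly by Azin2-/- libraries. The region chr5:24347902-24349111 was held by all 3 and by wild-type 2b, and chr5:24331332-24332132 by Azin2-/- 1 and 2. The region chr5:24324778-24326037, inside the gene and 3554 bp downstream of the internal start, was in every Azin2-/- list and in no wild-type list. In the full deposited lists each wild-type library had a weaker peak there, at ranks 296886, 74123 and 629614, against 18321, 23786 and 13457 in Azin2-/-. When all deposited peaks were counted, the log2 difference of Kcnh2 was 0.21.

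Hcn2, chr10:79716634-79736108, encodes a pacemaker channel that cyclic AMP also opens. Its scaled cover was 4896, 4571 and 4223 bp in Azin2-/- 1, 2 and 8 and 778, 2926 and 0 bp in wild-type 1, 2 and 2b. The genotypes did not overlap, but wild-type values were scattered (log2 difference 1.96, SE 0.58, limma adjusted p = 0.752). It was 1.26 without wild-type 2b and 2.67 without wild-type 2. At a deposited q of 0.01 or less Hcn2 was the only 1 of 71 channel loci to pass (log2 difference 2.35, limma adjusted p = 0.0433). Of all 9437 loci tested there, 22 passed as higher in Azin2-/- and 4 as lower. The limma adjusted p of Hcn2 over the 22 alternatives that gave it a value ran from 0.0433 to 0.999. The lists at that q differed in length, from 6858 peaks in wild-type 1 to 26146 in Azin2-/- 1.

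At the start site of Hcn2, peaks among the 30000 strongest were found in Azin2-/- libraries alone. The region chr10:79715930-79717895, around the window printed above, was covered over 1966, 1456 and 1513 bp with summit pileups of 12, 10 and 11 fragments in Azin2-/-, and not in wild-type. Weaker deposited peaks were there in each wild-type library, at ranks 557066, 94367 and 587598. At the other end of the gene, chr10:79734656-79736466 was held by all 3 Azin2-/- libraries and wild-type 2. That end and the gene's flanks adjoin Bsg and Polrmt, and 54.7% of the cover of the locus lay outside other genes and 1 kb around them. Counting only that cover, the log2 difference of Hcn2 was 1.82, and over all deposited peaks it was 0.32.

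**Figure D4:**
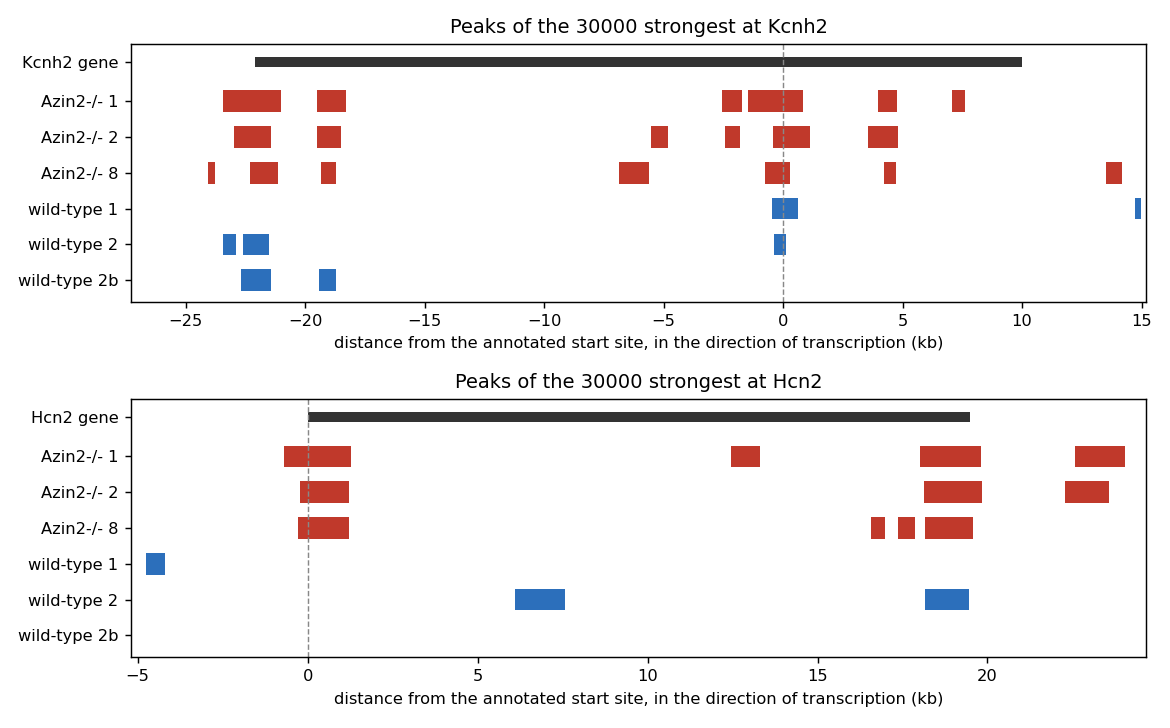
Peaks among the 30000 strongest at Kcnh2 (top) and Hcn2 (bottom) in each library, by distance from the annotated start site in kb along the direction of transcription. Each box is a peak, red for Azin2-/- and blue for wild-type, and the black bar is the gene. At Hcn2 the box across the start site is in the 3 Azin2-/- rows alone, and wild-type 2b has no box.

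Hcn4 and Hcn3 were also positive, though less. Hcn4 had scaled cover of 3148, 3106 and 3443 bp in Azin2-/- and 1089, 2695 and 2798 bp in wild-type, without overlap (log2 difference 0.54). Hcn3 differed by 0.40, with overlap. Hcn2 was positive in each of the 22 alternatives that gave it a value, whereas Hcn4 turned negative in 2 of 23, the 5000 strongest peaks and all deposited peaks, down to -0.84.

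Kv3 channels, which let fast-spiking neurons fire at high rates, had the highest subfamily median, 1.22 over 4 genes. Kcnc1 had 3563, 2679 and 2568 bp in Azin2-/- and 0, 2280 and 814 bp in wild-type (log2 difference 1.48), and Kcnc2 had 3768, 1461 and 1769 bp and 675, 719 and 1320 bp (0.95). At both, every Azin2-/- library lay above every wild-type library, and wild-type 1 was lowest. Kcnc4 went against these, with 2204, 2592 and 0 bp in Azin2-/- and 1023, 3157 and 2183 bp in wild-type (-0.61), where Azin2-/- 8 alone was at 0.

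Among the remaining loci without overlap, Kcnn1, a small-conductance calcium-activated channel, had 7601, 6248 and 3573 bp in Azin2-/- and 711, 2835 and 2749 bp in wild-type (log2 difference 1.36). Its neighbours Arrdc2 and Ccdc124 lie within 5 kb, and 71.6% of its cover was outside other genes and 1 kb around them. Kcnj3, which forms G-protein-gated inward rectifiers, had 819, 1885 and 2358 bp and 733, 0 and 690 bp (1.2). Kcnk6 had 2269, 1868 and 1456 bp and 828, 1100 and 788 bp (0.74), its values lying close together in both genotypes. Kcnh5 (0.71) and Cacna1a (0.40) did not overlap either, but the gaps were narrow. The lowest Azin2-/- and highest wild-type values were 7024 and 7018 bp at Cacna1a and 2164 and 2038 bp at Kcnh5.

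Of the 5 largest positive differences, 3 were at genes whose libraries overlapped. Kcnab2, the beta 2 subunit of Kv1 channels, had 2440, 5139 and 2037 bp in Azin2-/- and 0, 3034 and 0 bp in wild-type (log2 difference 1.86). Its neighbours Chd5 and Nphp4 lie within 5 kb, and 74.4% of its cover was outside other genes and 1 kb around them. Over the alternatives the difference of Kcnab2 ran from 0.25, with all deposited peaks, to 3.28. Kcnd2, the Kv4.2 pore of fast transient currents, had 3049, 787 and 5939 bp and 1387, 194 and 200 bp (1.67), and Kcng1, a modifier subunit, had 2273, 3426 and 976 bp and 0, 2029 and 0 bp (1.56). At Kcnab2 and Kcng1 wild-type 2 lay among the Azin2-/- values while wild-type 1 and 2b were at 0.

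The largest negative difference was that of Scn10a, the Nav1.8 channel of pain-sensing neurons, with 0, 526 and 0 bp in Azin2-/- and 900, 1657 and 488 bp in wild-type (log2 difference -1.18). Only the lowest wild-type value and Azin2-/- 2 overlapped. Kcnh1 had 3239, 4243 and 254 bp and 5389, 5989 and 1093 bp (-0.73), and Kcna4, a Kv1 pore, had 984, 804 and 0 bp and 1280, 1954 and 493 bp (-0.72). Kcnmb2, an accessory protein of BK channels, differed by -0.63 and Kcnc4 by -0.61. Azin2-/- 8 was the lowest library at Kcnh1, Kcna4, Kcnmb2 and Kcnc4. Of loci under the minimum, Scn2a and Kcnj16 were at 0 in all Azin2-/- libraries and at 438, 698 and 417 bp and 335, 652 and 909 bp in wild-type 1, 2 and 2b.

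**Figure D5:**
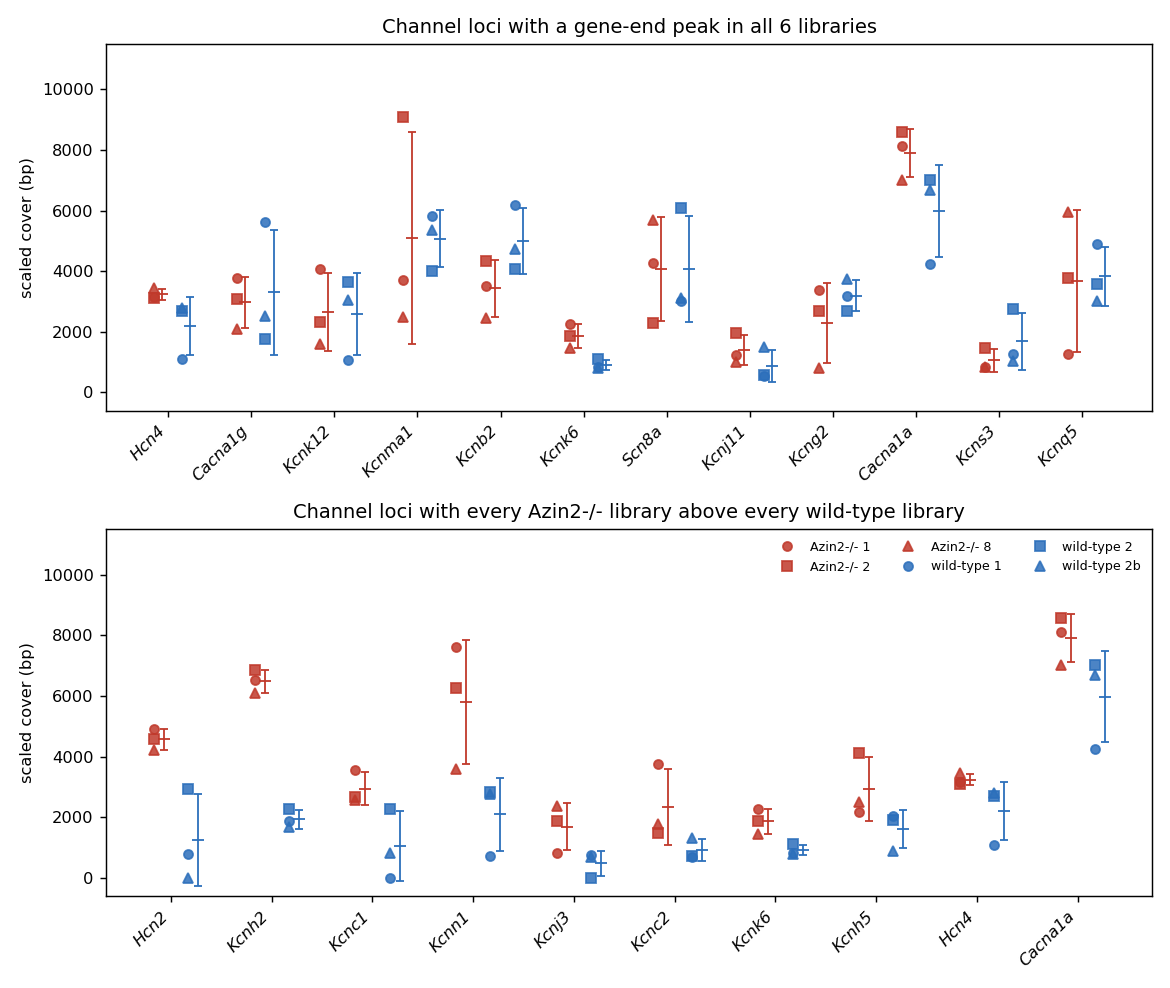
Scaled cover in bp (vertical axis) of channel loci by library, for 12 of the 14 genes with a gene-end peak in all 6 libraries (top) and 10 of the 11 genes with every Azin2-/- library above every wild-type library (bottom). Points are libraries and bars are the mean ± SD of 3. Genotypes overlap at most genes of the top panel, while Kcnh2 has a wide gap, 6083 against 2272 bp.

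Subfamily medians otherwise lay near those of all loci or moderately above. Kv1 had 0.65 over 4 loci tested, inward rectifiers and Kcnk channels 0.47 each over 8 and 10, and calcium pores 0.40 over 9. Modifier subunits and Kcnn channels had 0.12, accessory proteins 0.02, Kv2 and sodium pores -0.01, Kcnh and KCNQ -0.02, Kv4 -0.07 and the large-conductance and sodium-activated group -0.09. HCN was the only one of the 15 subfamilies without genes of both signs, and no subfamily median has a test.

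Channels named from a fixed list, besides Kcnh2, Hcn2 and Kcnma1 described above, showed no common direction. Kcnk3, a background channel described as a brake on heat production in fat, had 2368, 3043 and 2681 bp in Azin2-/- and 785, 4188 and 3472 bp in wild-type (log2 difference 0.14), with wild-type both highest and lowest. Kcna3, a Kv1 pore of lymphocytes and other cells, had 1578, 1200 and 2054 bp and 0, 1787 and 715 bp (0.90), with overlap. Cacna1c, the L-type calcium pore of heart and smooth muscle, had 5037, 6404 and 2664 bp and 7513, 9454 and 4260 bp (-0.55), the genotypes overlapping through Azin2-/- 1 and 2 and wild-type 2b. Kcnq1 differed by -0.02, Kcnd3 by -0.07, Kcnn4 by -0.42, Cacna1g by -0.03 and Scn8a by -0.01, and all 5 overlapped. Kcnj8, the ATP-sensitive pore of pericytes and vessels, was under the minimum, with 595, 0 and 654 bp in Azin2-/- and 0 in each wild-type library.

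Of the 958 regions, 8 were in every Azin2-/- list but no wild-type list (0.835%, against 0.408% of all regions), and 0 had the reverse pattern (0%, against 0.0249%). Besides those in Kcnh2 and Hcn2 they lay in Kcnj3, Kcna7, Kcnk1, Cacna1d, Cacna1h and at the end of Kcns1. Kcns1, a modifier subunit, was the only channel gene whose end had a peak in each Azin2-/- library and in none of wild-type (0.847%, against 0.883%). No channel gene had the reverse (0%, against 0.0693%). Its region, chr2:164170469-164171600, was covered over 989, 740 and 428 bp in Azin2-/-. In 7 of the 8 regions each wild-type library had a weaker deposited peak, and at Kcnj3 wild-type 1 and 2 did. In the full lists 80 of the 118 channel genes had a gene-end peak in every library, so weak peaks are listed at many places. The weaker peaks in these 7 regions thus cannot decide whether wild-type was acetylated there.

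A further list of 42 channel-related genes outside the symbol rule held auxiliary subunits, such as calcium channel beta and alpha2delta and sodium channel beta subunits. It also held intracellular partners and the pore genes Nalcn, Hvcn1, Tpcn1 and Tpcn2. A gene-end peak in all 6 libraries was present at 5 of the 42 (against 18% of all protein-coding genes), among them Cacna2d1, Fgf11 and Tpcn1. Another 26 had one in 1 to 5 libraries (against 43.9% of all genes) and 11 in none (against 38.1%). Of the 35 tested, 17 were positive and 18 negative, with a median of -0.01, and 0 passed. Over all loci 54.8% were positive and the median was 0.07.

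Markers of cell types that use these channels were checked at the same gene ends. Of 8 adipocyte markers only Plin1 had a peak in all 6 libraries, and Adipoq, Cd36, Cidec and Retn had none in any. Of 8 progenitor markers none was constant (against 18% of all protein-coding genes), and Pdgfra, Dpp4, Ly6a and Pi16 had none. At gene ends the lists thus marked the labelled cell type weakly. Over the whole locus Pdgfra had peaks in every library. Its scaled cover was 2027, 576 and 1016 bp in Azin2-/- and 2352, 1224 and 2200 bp in wild-type. The Dpp4 and Pi16 loci had peaks in some libraries, and Ly6a had 181 bp in wild-type 2b alone. Of 8 neuronal markers 0 had a peak in all 6 libraries (against 18% of all protein-coding genes) and 6 in 1 to 5 (against 43.9%). Their summed end cover was 2091 to 5006 bp in Azin2-/- and 0 to 1885 bp in wild-type. Elavl3 and Elavl4 each had a gene-end peak in 4 libraries, with both genotypes among them. Snap25 and Stmn2, which define neurons, had none. Muscle markers had 1770 to 2743 bp and 340 to 2111 bp, with none at Myog, Acta1, Ryr1 and Myh6. Of the muscle markers Myod1, a regulator of muscle identity, had 633, 690 and 904 bp of end cover in Azin2-/- 1, 2 and 8. It had 0 in each wild-type library. Des had 1120, 830 and 866 bp in Azin2-/- and 0, 0 and 1032 bp in wild-type. Nkx2-5 had 982, 1223 and 0 bp and 0, 1063 and 1079 bp, and the genotypes overlapped at both. Tnnt2 had 340 bp in wild-type 1 alone. Glial markers had 774 to 2194 bp and 0 to 1497 bp, with none at S100b and Gfap. At gene ends the summed cover of neuronal markers and the cover of Myod1 were thus higher in every Azin2-/- library than in any wild-type library. The neuronal gap was narrow, 2091 against 1885 bp, in lengths not scaled for the unequal totals of the libraries. A gene-end peak in all Azin2-/- and no wild-type libraries, as at Myod1, was found at 0.883% of all protein-coding genes. The summed end cover of the muscle markers overlapped between genotypes, and no other cell type list separated them. Over whole loci the neuronal markers had no common direction. Of 5 tested, 3 were positive and 2 negative (median log2 difference 0.28). The part of these markers in the result was not tested. Smooth muscle markers had 0 to 2154 bp and 0 to 1129 bp, endothelial markers 0 to 730 bp and 0 to 215 bp, and macrophage markers 0 to 667 bp and 0 bp.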

How the data were processed

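H3K27ac ChIP-seq of 6 libraries was used. The 6 input libraries were not analysed here. The authors deposited 1 peak list per library on mm10 (GRCm38), per the submitters' processing notes, with a score, a fold ratio of summit over background, a -log10 p-value and a -log10 q-value per peak. The deposited score is 10 times the -log10 p-value, cut to a whole number. These values are the authors' and served only to rank, filter and describe peaks within a list. For the aligner, peak caller, control and duplicate handling: not given in the sources used here. Read totals are unknown. Pileups were derived from the deposited fold and p-value, with a pseudocount of 1 assumed. At least 99.99% of them were whole within 0.001 (log10).

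The 30000 peaks of smallest p on chromosomes 1 to 19 and X were kept for each library (ties went by fold, then position). Covered length of a gene with its 5 kb flanks was scaled so that libraries had the same total, 500 bp were added and the log2 taken. Loci with a mean of at least 500 bp were tested with limma 3.58.1 (R 4.3.3; eBayes with trend, Benjamini-Hochberg at 0.05), checked on simulated data. Differences are on the log2(cover + 500 bp) scale and understate those of low loci. A peak at a gene end overlaps 1 kb on either side of a gene's end by at least 1 bp. Start sites and promoters came from RefSeq (GRCm38.p6), where 86 of 118 channel genes matched. Python 3.11.15 and pandas 2.3.3 were used.

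Named genes were those with a gene-end peak in all 6 libraries, the 5 of largest log2 difference in each direction, those with gene-end peaks in 1 genotype only, and Kcnh2, Hcn2, Kcnma1, Kcnk3, Kcnq1, Kcnn4, Kcna3, Kcnj8, Kcnd3, Cacna1c, Cacna1g and Scn8a. Some genes that this rule or a list names are not reported here. Other genes were named after their values were seen, to complete a subfamily or a count. The members, subfamilies, lists and tests were chosen with earlier results of these data known.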

Additional observations from a re-analysis of the deposited data

How the results depend on the processing

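The count of channel genes with a gene-end peak in every library, 14, depended on list length: it was 0 in the 5000 strongest peaks, 6 in 15000, 24 in 60000 and 80 in all deposited peaks. It was 3 at a deposited q of 0.01 or less, 6 at a q of 0.05 or less, 6 at start sites (added after the data were seen), and 14 to 21 with each library left out, 21 without wild-type 1. No channel locus passed in limma except Hcn2 at a q of 0.01 or less, where the count was 1. Over all loci, 22 were then higher and 4 lower, with fixed windows of 250 bp 30 and 19, and with the replicate block 15 and 3, against 0 and 0. With each library left out the counts were 0. The replicate block, on replicates 1 and 2, called 0 channel loci, with limma's prior degrees of freedom infinite. The labels do not say whether equal numbers pair libraries. Deviations of same-numbered libraries from their genotype means had correlations of -0.035 and 0.123 over 11687 loci. Libraries of unequal number were not compared in this way, so these values cannot decide whether the numbers pair. The median of all loci, 0.07, was -0.05 in the 5000 strongest peaks, -0.03 at a q of 0.01 or less, -0.03 at a q of 0.05 or less, -0.04 in all deposited peaks, -0.00 with fixed windows, 0.17 without scaling and -0.03 at a minimum of 2000 bp. The channel median was positive in each alternative, between 0.06 and 0.53, and 0.13 to 0.48 with each library left out. Of 725 recomputed values of named genes, 663 moved by less than the spread between libraries. Of 33 named genes tested, 10 kept their sign in every alternative that gave a value (among them Cacna1c, Hcn2, Kcna3, Kcnab2, Kcng1, Kcnh2, Kcnk6, Kcns3 and Scn10a), while Scn8a turned in 13 of 23. The causes were not tested. Lists differ in length at a given q. Wild-type 1 had the fewest peaks at a q of 0.01 or less, 6858, but 21544 at a q of 0.05 or less. Read totals are unknown, and the effect of these unequal lists on what is detectable was not tested.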

Other observations

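Long non-coding RNA genes that carry a channel gene's name stem lie in or beside some of these loci and are not among the 118 genes. Kcnd3os, which begins beside the Kcnd3 start, had a gene-end peak in 5 libraries, with 1346, 1652 and 1364 bp of end cover in Azin2-/- 1, 2 and 8 and 1122, 1234 and 0 bp in wild-type 1, 2 and 2b. Wild-type 2b alone lacked it. Kcnmb4os2 had such a peak in Azin2-/- 1 and 2 and in wild-type 1 and 2. Kcnq1ot1, the imprinted antisense RNA inside Kcnq1, had 903 bp of cover in Azin2-/- 1, 425 bp in Azin2-/- 8 and none in the other libraries, and Kcnmb4os1 had none in any library. Peaks carry no strand, so a peak shared by a channel gene and its antisense partner cannot be told apart.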
